A study of Mus musculus with 8 samples.

Results

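The trophectoderm, the first epithelium of the mouse embryo, was followed here through 10 genes out of the 18193 genes measured on the arrays: the simple-epithelium keratins Krt8, Krt18, Krt19 and Krt7, the transcription factors Tfap2c, Gata3, Cdx2 and Eomes, and the placental homeobox genes Rhox6 and Rhox9. They were taken by gene symbol, whatever their values, and 16 probe sets carried one of these symbols. The RNA came from 8 mouse embryonic stem cell (ESC) lines: Zfp281 null lines 7, 3.34 and 3.38, heterozygous lines 5 and 3.1, and wild-type lines 3, 3.2 and 3.3. Zfp281 encodes a zinc finger transcription factor, and in its targeted allele a floxed neomycin resistance cassette stood in place of both exons. The study also describes a null allele with this cassette removed, and the sample labels do not say which form a line carried. With either form null lines lacked the coding sequence on both alleles and heterozygous lines on 1. All lines, wild-type included, were derived from blastocysts of heterozygous matings and were grown untreated on primary mouse embryonic fibroblasts with LIF, so that feeder RNA could be part of each sample. Each line was hybridized once to an Affymetrix mouse genome 430 2.0 array, and the lines were the replicates. Levels are RMA values on the log2 scale, on which 1 unit is a doubling of the signal, and a probe set was detected where the Affymetrix detection p was under 0.05.

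Keratins form filaments from pairs of 1 acidic and 1 basic chain. Krt8, a basic chain, pairs with the acidic Krt18, and this pair is the first keratin made in the embryo, in the trophectoderm, and later in endoderm and other simple epithelia. Cdx2, Eomes, Gata3 and Tfap2c are transcription factors that set up or maintain the trophectoderm and the trophoblast stem cells derived from it, whereas the pluripotency factor Oct4, encoded by Pou5f1, holds this program down in ESCs. Rhox6 and Rhox9 belong to an X-linked cluster of homeobox genes and are known from placenta and germ cells.

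Krt8 and Krt18 lie in head-to-head order on chromosome 15, with 23.874 kb between their annotated starts, and they moved together over the ESC lines, so the 300 bases around each start are shown, with 250 bases before and 50 bases from the start on. RefSeq windows on the GRCm38.p6 assembly were at hand for 6 of the 10 genes, namely Krt7, Krt8, Krt18, Gata3, Cdx2 and Eomes. The Krt8 window is chr15:102004293-102004592 on the minus strand and the Krt18 window chr15:102027966-102028265 on the plus strand. Capitals mark any match, on either strand, to the G-rich GGGGAGGG, the type of sequence that Zfp281 and related zinc finger proteins bind, to GCCNNNGGC, the palindrome bound by the AP-2 family to which Tfap2c belongs, or to the TATA box TATAAA.
Krt8: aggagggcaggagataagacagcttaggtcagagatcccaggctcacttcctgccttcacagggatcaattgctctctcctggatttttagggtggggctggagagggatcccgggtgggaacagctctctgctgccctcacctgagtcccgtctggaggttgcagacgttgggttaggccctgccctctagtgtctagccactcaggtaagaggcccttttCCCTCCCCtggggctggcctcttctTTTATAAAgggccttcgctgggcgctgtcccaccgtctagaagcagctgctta
Krt18: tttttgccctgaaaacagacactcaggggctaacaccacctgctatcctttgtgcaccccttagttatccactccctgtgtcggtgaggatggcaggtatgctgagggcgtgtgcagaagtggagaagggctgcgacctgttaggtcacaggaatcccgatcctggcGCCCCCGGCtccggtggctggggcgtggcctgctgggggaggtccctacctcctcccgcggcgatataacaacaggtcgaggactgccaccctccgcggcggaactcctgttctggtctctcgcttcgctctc
In the Krt8 window the G-rich letters were on the reverse strand at bases 223 to 230, and TATAAA was on both strands in overlapping positions, at bases 248 to 253 and 250 to 255, counted from the 5′ end of the window. The Krt18 window held 1 AP-2 palindrome, at bases 168 to 176, and neither of the other motifs. Such matches are frequent: of 32851 promoter windows of this length, 10.8% held GGGGAGGG, 16.6% held GCCNNNGGC and 13.6% held TATAAA. Among the other genes, AP-2 palindromes were in the windows of Krt7, Gata3 and Cdx2, the G-rich letters were in that of Cdx2, and the Eomes window held none of the 3 motifs.

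The labels were checked first with Zfp281 itself. Its probe set 1452045_at stood at 3.39, 2.96 and 2.94 in the null lines 7, 3.34 and 3.38, at 6.74 and 6.74 in heterozygous ESCs and at 7.19, 8.36 and 7.58 in the wild-type lines. A second probe set, 1426377_at, was at 3.64, 5.06 and 5.23 in the null lines, at 6.69 and 6.97 in heterozygous ESCs and at 6.72 or above in the wild-type lines, so that heterozygous and wild-type ESCs overlapped there. Both probe sets were detected in 2 of the 3 null lines, although these lines lack the coding sequence. A detected call alone thus does not show that the ESCs make the RNA, and the cause of these calls was not tested. The arrays detected 28.4% to 35.3% of all probe sets. The control probe sets for Gapdh and beta-actin gave a mean 3′ minus 5′ difference, a measure of RNA integrity and labelling, of 3.30 ± 0.55 in null lines (SD, n = 3), 4.64 ± 0.22 in heterozygous lines (n = 2) and 4.61 ± 0.34 in wild-type lines (n = 3). All null lines were below all wild-type lines in this measure (difference −1.31, exact two-sided permutation p = 0.1, the smallest that 3 against 3 lines allow), so that genotype and RNA quality cannot be told apart in the null comparisons. Bulk RNA also does not tell fewer cells of a type from less RNA per cell.

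None of the 10 genes passed an adjusted p of 0.05 in any comparison of genotypes (limma, Benjamini-Hochberg over 18193 genes). In null against wild-type ESCs 0 of 10 were called, where 1.13% of all genes were, and 3 of 10 (Krt8, Krt19 and Tfap2c) had an unadjusted p under 0.05, against 16.4% of all genes. Only Krt8 was past a log2 fold change of 1 in size (2.47% of all genes), and only Tfap2c had null lines that did not overlap the wild-type lines (22.4% of all genes). The median log2 fold change was −0.34 over the 10 genes and −0.01 over all genes, with genes that no line detected among the 10. Since limma called 0 of the 10 with all lines, and Krt8 and Tfap2c when the null line 3.34 was left out (2 of 10 called, with 0.973% of all genes), the values line by line are given for each gene.

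**Figure D1:**
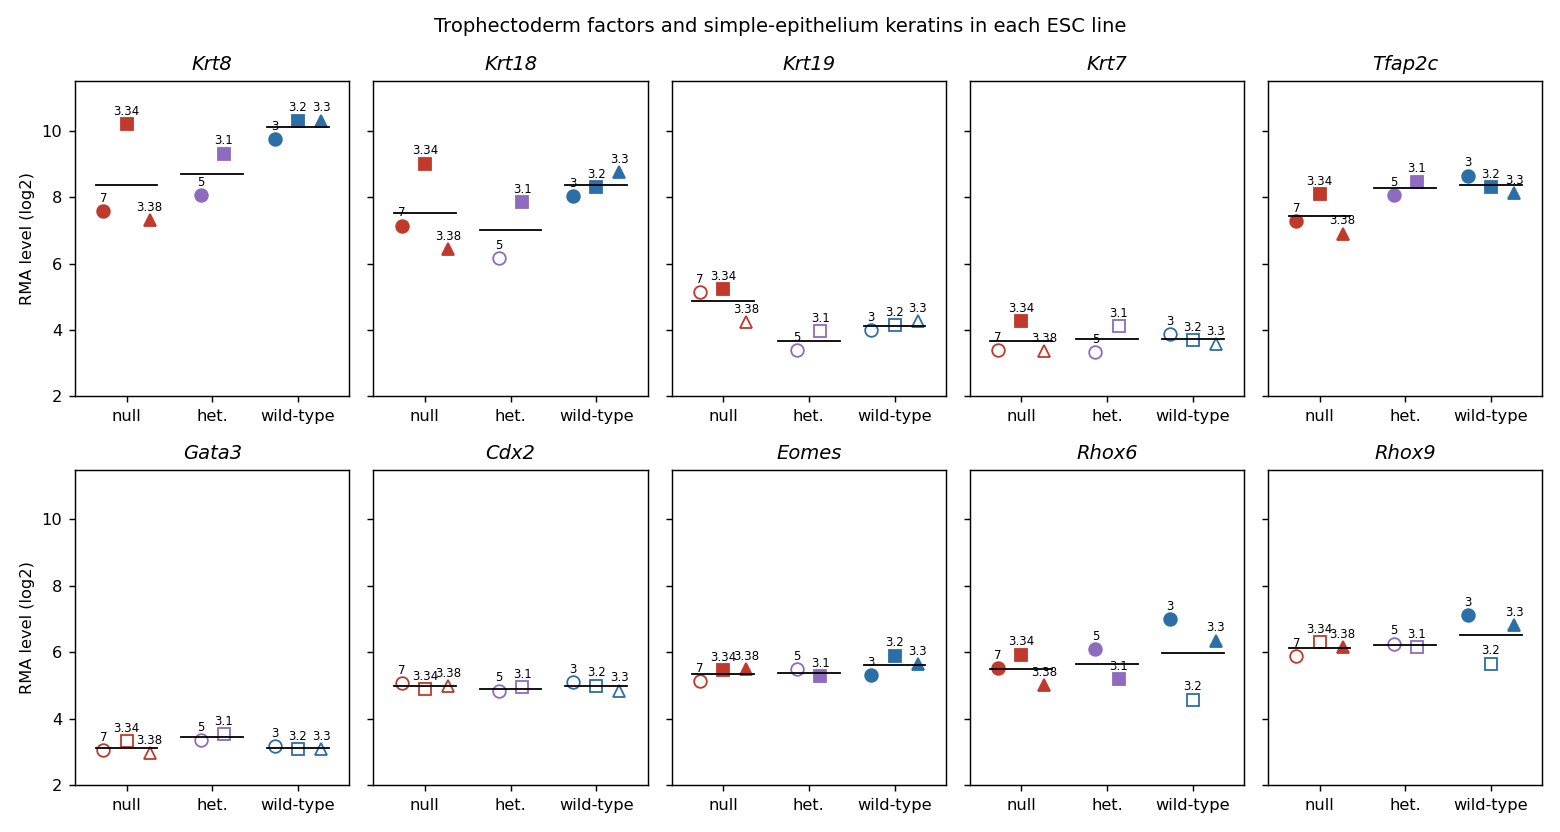
RMA level (log2) of each gene in each ESC line, null lines left, heterozygous lines in the middle and wild-type lines right, with the line number above each point. Filled points are detected lines, open points lines where the probe set was not detected, and bars are genotype means. In null line 3.34 Krt8 lies among the wild-type lines and Krt18 above them, both well above the other two null lines, and Gata3 and Cdx2 are open in all 8 lines.

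Krt8 was detected in all 8 lines. Its level was 7.58, 10.20 and 7.30 in null lines 7, 3.34 and 3.38, 8.05 in heterozygous line 5, 9.31 in heterozygous line 3.1, and 9.74, 10.30 and 10.30 in wild-type lines 3, 3.2 and 3.3. Thus null lines 7 and 3.38 and the heterozygous line 5 were low, whereas null line 3.34 was as high as the wild-type lines, and the null and wild-type ranges overlapped. The mean was 8.36 ± 1.60 in null ESCs and 10.12 ± 0.33 in wild-type ESCs (SD, n = 3 each), a log2 fold change of −1.76 (SE 0.70, limma adjusted p = 0.26). Without null line 3.34 it was −2.68 (adjusted p = 0.037), and with the 3′ minus 5′ difference in the model it was −0.15 (SE 1.31).

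Krt18, the partner chain of Krt8, was high and low in nearly the same lines. It was at 7.14, 9.01 and 6.43 in null lines 7, 3.34 and 3.38, at 6.16 and 7.84 in heterozygous lines 5 and 3.1, and at 8.03, 8.30 and 8.76 in wild-type lines 3, 3.2 and 3.3. The null line 3.34 was above every wild-type line, the other two null lines were below them, and the heterozygous line 5 was the lowest and the only line where Krt18 was not detected. The log2 fold change of null over wild-type ESCs was −0.84 (SE 0.65, adjusted p = 0.63), with a 95% interval of −2.33 to 0.65. It was −1.58 without null line 3.34 and turned to 0.13 (SE 1.31) once the 3′ minus 5′ difference entered the model, both short of the threshold.

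Both keratins differed more between lines of 1 genotype than nearly all other genes. The pooled SD within genotypes was 1.11 for Krt8, rank 19 of 18193 genes, and 1.02 for Krt18, rank 30. Across the 8 lines Krt8 and Krt18 had a Pearson r of 0.91 and a Spearman rho of 0.86, and r was 0.96 after the genotype means were taken out. It was also 0.96 without null lines 7 and 3.38, the lines farthest from the median of Krt8. Ordered by likeness to Krt8, Krt18 was number 28 among 7590 genes, namely those detected in at least 4 lines and the other genes of the set. The genes most like Krt8 were Zfp839 (r = 0.995), Selenoh (0.97) and Amotl1 (0.97), and those most like Krt18 were Hbs1l (0.97), Stx3 (0.95) and Cdca5 (0.94). These are descriptions over 8 arrays shared by all genes.

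**Figure D2:**
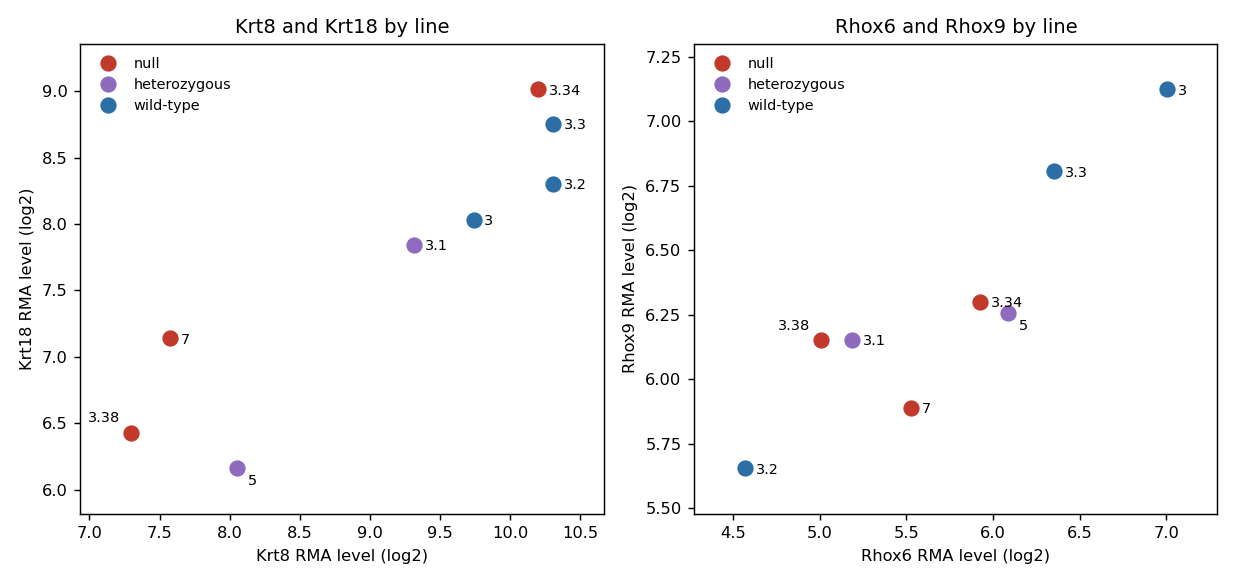
Levels (RMA, log2) of Krt18 against Krt8 and of Rhox9 against Rhox6, 1 point per ESC line with its number, null in red, heterozygous in purple and wild-type in blue. In the keratin pair the null lines 7 and 3.38 and the heterozygous line 5 form the low end, and null line 3.34 stands at the high end with wild-type lines 3.2 and 3.3. In the Rhox pair the wild-type lines 3 and 3.3 are highest and wild-type line 3.2 is lowest.

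In markers of ESCs and feeder cells null line 3.34 was close to the other null lines. Its mean level over 15 ESC markers was 8.72, against 8.76 and 8.80 in null lines 7 and 3.38 and 7.81 to 8.23 in the wild-type lines. Its mean over 18 measured markers of feeder fibroblasts was 6.62, beside 6.60 and 6.72 in the other null lines and 6.76 to 7.41 in the wild-type lines. Its mean over 21 measured endoderm markers was 4.96, beside 4.61 and 4.89 in the other null lines and 4.86 to 5.47 in the wild-type lines. The part of feeder or endoderm cells in the keratin levels was not tested.

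The 3 probe sets of Krt8 gave one picture. Probe set 1423691_x_at was at 6.44, 8.75 and 5.78 in null lines 7, 3.34 and 3.38, at 6.35 and 7.74 in heterozygous ESCs and at 8.13, 8.56 and 8.91 in the wild-type lines. The remaining one, 1435989_x_at, was at 6.20, 8.63 and 6.34 in null lines, 6.84 and 7.97 in heterozygous ESCs, and 8.21, 8.70 and 8.77 in wild-type lines. In both, null line 3.34 again stood with the wild-type lines, and each correlated with the main probe set over the 8 lines (r = 0.99 for both). The suffix _x_at marks probes that may also match other transcripts, which for a keratin with close relatives limits what these add. None of the 16 probe sets passed in null against wild-type ESCs when all probe sets were tested.

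**Figure D3:**
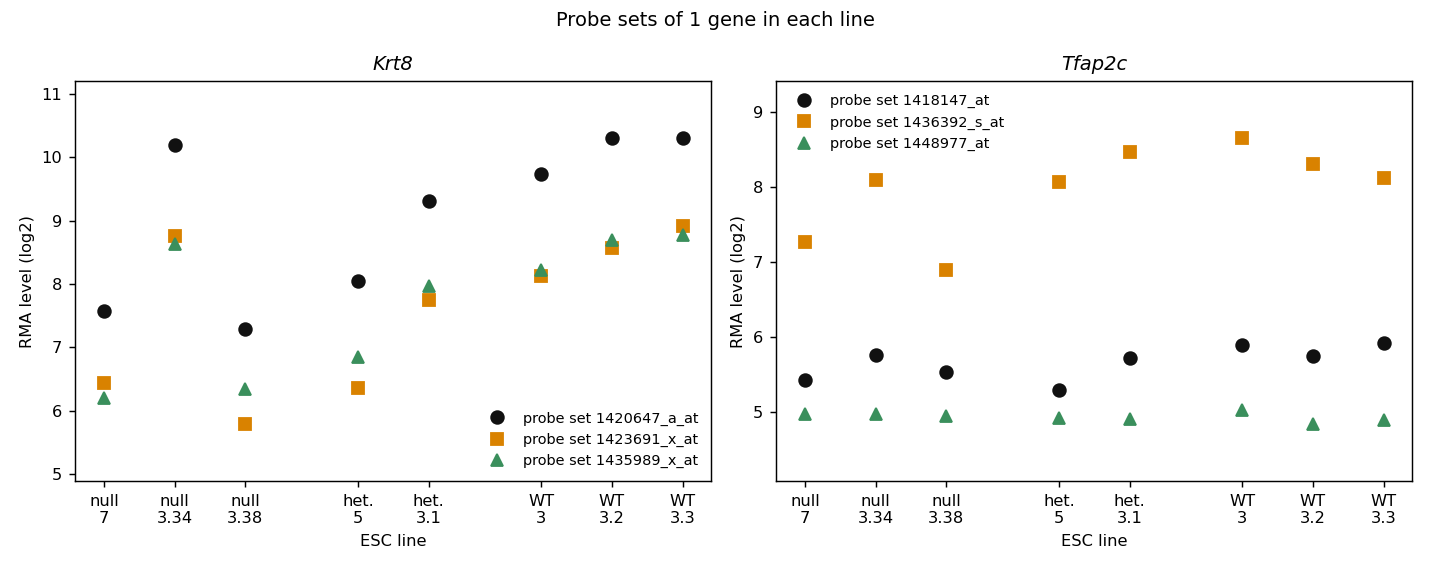
Level (RMA, log2) of each probe set of Krt8 and Tfap2c in each ESC line, null lines left, heterozygous (het.) in the middle and wild-type (WT) right. The 3 Krt8 probe sets rise and fall over the lines together, whereas the brightest Tfap2c probe set varies and 1448977_at stays between 4.85 and 5.03 in all lines.

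Krt19, an acidic keratin of simple epithelia and of the placenta, ran the other way. It was at 5.14, 5.22 and 4.23 in null lines 7, 3.34 and 3.38, at 3.40 and 3.96 in heterozygous ESCs, and at 3.99, 4.13 and 4.26 in wild-type lines. Null lines 7 and 3.34 were above all others, null line 3.38 lay within the wild-type range, and only null line 3.34 detected the gene. No wild-type or heterozygous line detected it, and the null mean was taken over 1 detected and 2 undetected lines. By mean RMA level, null ESCs were at 1.67-fold the wild-type level (adjusted p = 0.21). They were at 2.28-fold the heterozygous level (adjusted p = 0.12). With undetected lines on both sides, these ratios are not lower bounds on a difference. From signal values the log2 difference of null over wild-type ESCs was only 0.15. The null and heterozygous lines did not overlap, as was the case for 27.9% of all genes. Krt7, the keratin of trophoblast and ductal epithelia, was detected in null line 3.34 alone, at 4.26, with 3.39 and 3.35 in the other null lines, 3.32 and 4.10 in heterozygous ESCs, and 3.58 to 3.87 in wild-type lines. No fold change is given for it.

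Among all 44 keratin genes on the array, 28 were detected in no line and 1, Krt8, in every line, and 0 rose or fell in null against wild-type ESCs (all 44 did not pass). Of the keratins outside the set, Krt80 averaged 4.06 in null and 4.24 in wild-type ESCs, and Krt10 4.16 in null and 4.07 in wild-type ESCs. Neither approached the threshold (adjusted p = 0.45 and 0.78).

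By its brightest probe set, 1436392_s_at, Tfap2c had the smallest p of the 10 genes in null against wild-type ESCs. That probe set was detected in all lines. Tfap2c is the AP-2γ transcription factor of trophectoderm and germ cells. Its probe set 1436392_s_at was at 7.28, 8.09 and 6.90 in null lines 7, 3.34 and 3.38, at 8.07 and 8.47 in heterozygous lines 5 and 3.1, and at 8.65, 8.31 and 8.12 in wild-type lines 3, 3.2 and 3.3. All null lines were below all wild-type lines, but null line 3.34 missed the lowest of them by a narrow margin and lay within the heterozygous range. The log2 fold change of null over wild-type ESCs was −0.94 (SE 0.29, adjusted p = 0.15), and that of null over heterozygous ESCs −0.85 (SE 0.33, adjusted p = 0.28). Without null line 3.34 the value against wild-type was −1.27 (adjusted p = 0.049), and with the 3′ minus 5′ difference in the model it was −0.22 (SE 0.53).

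The other Tfap2c probe sets did not show this difference. Probe set 1418147_at had a log2 fold change of −0.28 (SE 0.14, adjusted p = 0.45) and 1448977_at one of 0.05 (SE 0.09, adjusted p = 0.90), with 5 and 3 lines detected. Over the 8 lines their Pearson r with 1436392_s_at was 0.57 and −0.13. With all 3 probe sets averaged, the log2 fold change of Tfap2c was −0.39. Of the 5 AP-2 genes on the array, Tfap2c was the only one detected in every line of a genotype, and 0 of the 5 rose or fell.

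Gata3, a zinc finger factor that acts beside Cdx2 in trophectoderm, was detected in none of the 8 lines, with levels of 2.96 to 3.31 in null, 3.35 to 3.54 in heterozygous and 3.07 to 3.17 in wild-type lines. Cdx2, the caudal-type homeobox factor that represses Oct4 in the trophectoderm, was also detected in no line. Its probe set 1422075_at lay between 4.84 and 5.10 in all 8 lines and 1422074_at between 3.06 and 3.36. These levels do not show that either RNA is absent, and no fold change is given. Of the Cdx genes 0 of 3 were detected in any line, and of 6 Gata genes 0 rose or fell. Gata6, an endoderm factor, had a log2 fold change of −0.04 in null over wild-type ESCs (adjusted p = 0.97), and Gata1, a blood cell factor, one of −0.15 (adjusted p = 0.76).

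Eomes, a T-box factor of trophoblast stem cells that is also switched on in the primitive streak, was detected in 6 lines. It was at 5.12, 5.45 and 5.49 in null lines 7, 3.34 and 3.38, at 5.49 and 5.28 in heterozygous ESCs, and at 5.30, 5.89 and 5.64 in wild-type lines. The genotypes overlapped, and the log2 fold change of null over wild-type ESCs was −0.26 (SE 0.17, adjusted p = 0.56; 95% interval −0.65 to 0.14). A second probe set, 1426001_at, detected in 3 lines, gave −0.04 (SE 0.17, limma adjusted p = 0.97 over all probe sets). Among 13 measured markers of the primitive streak and mesoderm, 10 were detected in no line and 0 rose or fell.

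Rhox6 and Rhox9 varied most within the wild-type genotype. Rhox6 was at 5.52, 5.92 and 5.01 in null lines 7, 3.34 and 3.38, at 6.09 and 5.19 in heterozygous lines 5 and 3.1, and at 7.00, 4.57 and 6.35 in wild-type lines 3, 3.2 and 3.3. Rhox9 was at 5.89, 6.30 and 6.15 in the null lines, 6.25 and 6.15 in heterozygous ESCs, and 7.12, 5.65 and 6.81 in the wild-type lines. For both genes wild-type lines 3 and 3.3 were the highest of all 8 lines and wild-type line 3.2 the lowest, with the null and heterozygous lines in between. Rhox6 was detected in 7 lines, all but wild-type line 3.2, so that its lowest value is an undetected one. Rhox9 was detected in 3 lines only, 1 null and 2 wild-type.

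The log2 fold change of null over wild-type ESCs was −0.49 for Rhox6 (SE 0.57, adjusted p = 0.78) and −0.41 for Rhox9 (SE 0.33, adjusted p = 0.64). For Rhox6 it turned to 0.027 without wild-type line 3, was −1.19 without wild-type line 3.2, and was called in the 4 lines with litter as a block (−1.41, adjusted p = 0.041). Over the 8 lines Rhox6 and Rhox9 had r = 0.90 and rho = 0.90, and r = 0.70 without wild-type lines 3 and 3.2, and Rhox9 was number 12 of 7590 genes by likeness to Rhox6. The genes most like Rhox6 were Adipor2 (r = 0.96), Acsl5 (0.95) and Zfp513 (0.94). Rhox6 and Rhox9 are closely related in sequence, and how far each probe set also binds the other RNA was not tested.

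Another gene of the cluster, Rhox5, known as Pem and active in extraembryonic endoderm as well as trophoblast, was at 8.87, 7.93 and 9.42 in null lines, 9.04 and 8.54 in heterozygous ESCs, and 10.33, 7.62 and 9.38 in wild-type lines. It too was highest in wild-type line 3 and lowest in wild-type line 3.2. Endoderm markers moved over the wild-type lines in the same order: their mean was 5.47 in line 3, 4.86 in line 3.2 and 5.21 in line 3.3. Of the 21 measured, 12 were highest in line 3 and lowest in line 3.2, and 6 were highest in line 3.2. Of the 14 detected in 1 line or more, these counts were 11 and 2. Over these 3 lines Sox17 was at 5.14, 3.59 and 5.07, and Col4a1, a basement membrane collagen, at 10.32, 7.84 and 9.99, whereas Thbd, for thrombomodulin, was at 4.77, 6.25 and 5.01. Of the 21, 7 were detected in no line, among them Afp, Ttr and Hnf4a. Their part in the Rhox levels was not tested.

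A study legend gives null line 7 with wild-type line 3, and null line 3.38 with wild-type line 3.3, as litter mates. In both litters the null line was lower in Krt8 (by log2 differences of −2.16 and −3.01), Krt18 (−0.89 and −2.33), Tfap2c (−1.38 and −1.22), Rhox6 (−1.48 and −1.34) and Rhox9 (−1.23 and −0.66). With these 4 lines alone and litter as a replicate block, limma called 3 of the 10 genes, where 0.978% of all genes were called: Krt8 (−2.59, adjusted p = 0.041), Tfap2c (−1.30, adjusted p = 0.044) and Rhox6 (−1.41, adjusted p = 0.041). Since 4 lines had to fit both litter and genotype, little spread per gene was left, and these p-values lean on the spread shared over all genes. Line 3.34, the null line with high Krt8 and Krt18, has no litter mate in this block, and neither has wild-type line 3.2, the line with low Rhox6.

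**Figure D4:**
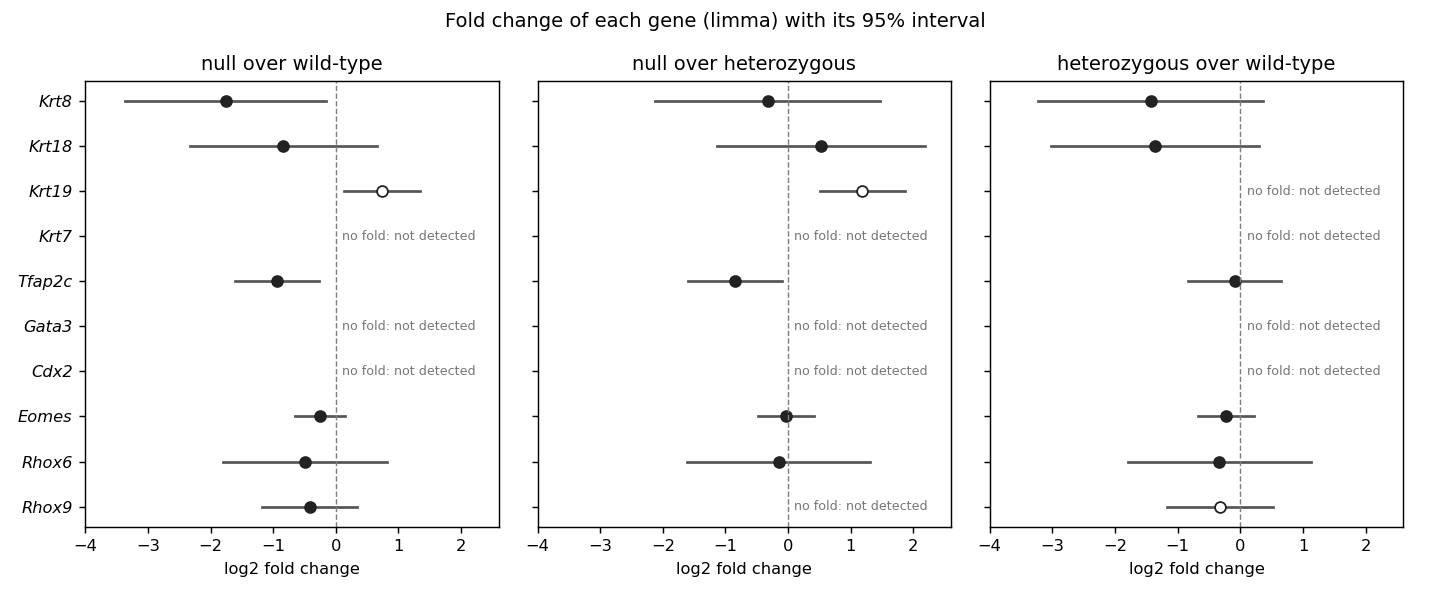
Log2 fold change (limma) of each gene for null over wild-type, null over heterozygous and heterozygous over wild-type ESCs, with 95% intervals as bars. Open points are folds for which the dimmer genotype had no detected line, and genes for which no fold could be given are marked. No gene passed the adjusted threshold in any panel; the widest intervals are those of Krt8, Krt18 and Rhox6.

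In heterozygous against wild-type ESCs, limma called 0 of the 10 genes, as it called 0% of all genes (1 of 10 and 3.85% at an unadjusted p under 0.05, the 1 being Gata3, which no line detected). Krt8 and Krt18 were past a log2 fold change of 1 in size, with 0.335% of all genes, at −1.43 (SE 0.79, adjusted p = 0.997) and −1.36 (SE 0.73, adjusted p = 0.997). In 4 of the 10 genes the heterozygous lines did not overlap the wild-type lines, against 17.3% of all genes: Krt8, Krt18 and Krt19 were below and Gata3 above, the last 2 with neither genotype detected. Tfap2c was close to wild-type in both heterozygous lines, with a log2 fold change of −0.09 (SE 0.33; 95% interval −0.83 to 0.65).

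Null against heterozygous ESCs, which shares the null arrays with the first comparison, also gave 0 of 10 genes called and 0% of all genes, with 3 of 10 (Krt19, Tfap2c and Gata3) and 13.8% of all genes at an unadjusted p under 0.05. Krt19 alone was past a log2 fold change of 1 in size (2.42% of all genes). Krt8 differed by −0.33 (SE 0.79; 95% interval −2.13 to 1.47) and Krt18 by 0.53 (SE 0.73; 95% interval −1.14 to 2.19), and these intervals leave room for a 2-fold difference either way.

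Other trophectoderm and trophoblast genes were read from a list of 27 genes, of which 23 were measured. None rose or fell in null against wild-type ESCs and 23 did not pass, and the median log2 fold change was −0.06. Under 5 of 17 other settings 1 or 2 of them were called lower, 2 of them without null line 3.34. The list held 6 genes that no line detected, among them Elf5, the factor that marks trophoblast stem cells, Tead4, the partner of Yap1 upstream of Cdx2, and Tpbpa of the spongiotrophoblast. Hand1, a giant cell factor, was detected in 7 lines and Plet1, a surface protein of trophoblast progenitors, in 4 lines, 1 heterozygous and 3 wild-type. Cdx2, Elf5 and Gata3 were thus undetected in all 8 lines, while Krt8 and Tfap2c, by their brightest probe sets, were detected in all. Between these, Hand1 and Ets2 were detected in 7 lines, and Eomes and Elf3 in 6.

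The 4 genes of that list with the smallest p among detected genes did not pass the threshold, and all 4 had lower values in the null lines. Id2, an inhibitor of basic helix-loop-helix factors, was at 4.44, 5.34 and 4.87 in null lines 7, 3.34 and 3.38, and at 5.96, 6.08 and 6.07 in wild-type lines (log2 fold change −1.15, SE 0.22, adjusted p = 0.053). The Hippo pathway coactivators Yap1 and Wwtr1 had log2 fold changes of −0.60 (adjusted p = 0.11) and −0.78 (adjusted p = 0.11), and the sodium pump subunit Atp1b1 one of −0.75 (adjusted p = 0.092). In all 4 the null lines lay below the wild-type lines without overlap, as in 22.4% of all genes, but the 4 were chosen by this comparison.

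A list of 20 measured genes held desmosome proteins, proteins that tie keratin filaments to them or to other structures, and 4 genes that are neither, Trp63, Stim1, Epcam and Ktn1. Of the 20, 3 fell in null against wild-type ESCs, 0 rose and 17 did not pass, where 1.13% of all genes were called. The list was chosen with earlier results of these data known. Desmoplakin, Dsp, which anchors keratins at desmosomes, was at 5.61, 5.14 and 5.85 in null lines 7, 3.34 and 3.38, at 6.26 and 6.13 in heterozygous ESCs, and at 6.77, 7.40 and 7.07 in wild-type lines. The null lines were lowest, the heterozygous lines in between and the wild-type lines highest, with no overlap (null over wild-type −1.54, SE 0.21, adjusted p = 0.032). Dystonin, Dst, a linker of keratin filaments to hemidesmosomes, had a log2 fold change of −1.22 (SE 0.16, adjusted p = 0.030), and Ktn1, which encodes kinectin, an anchor of the motor kinesin and no keratin linker, −1.57 (SE 0.28, adjusted p = 0.047). In these 3 genes null line 3.34 was below all wild-type lines, as it was not in Krt8.

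Further linkers gave values short of the threshold. Plakophilin 2, Pkp2, had a log2 fold change of −0.74 (adjusted p = 0.13), the desmosomal cadherin Dsg2 −1.17 (adjusted p = 0.19), plectin, Plec, −0.24 (adjusted p = 0.31) and epiplakin, Eppk1, 0.35 (adjusted p = 0.29). The median over the 20 was −0.09, beside −0.01 over all genes. None of the 20 was called without null line 7, wild-type line 3 or wild-type line 3.2, from signal values, with the 3′ minus 5′ covariate, or with probe sets averaged, where Dst was −0.34.

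**Figure D5:**
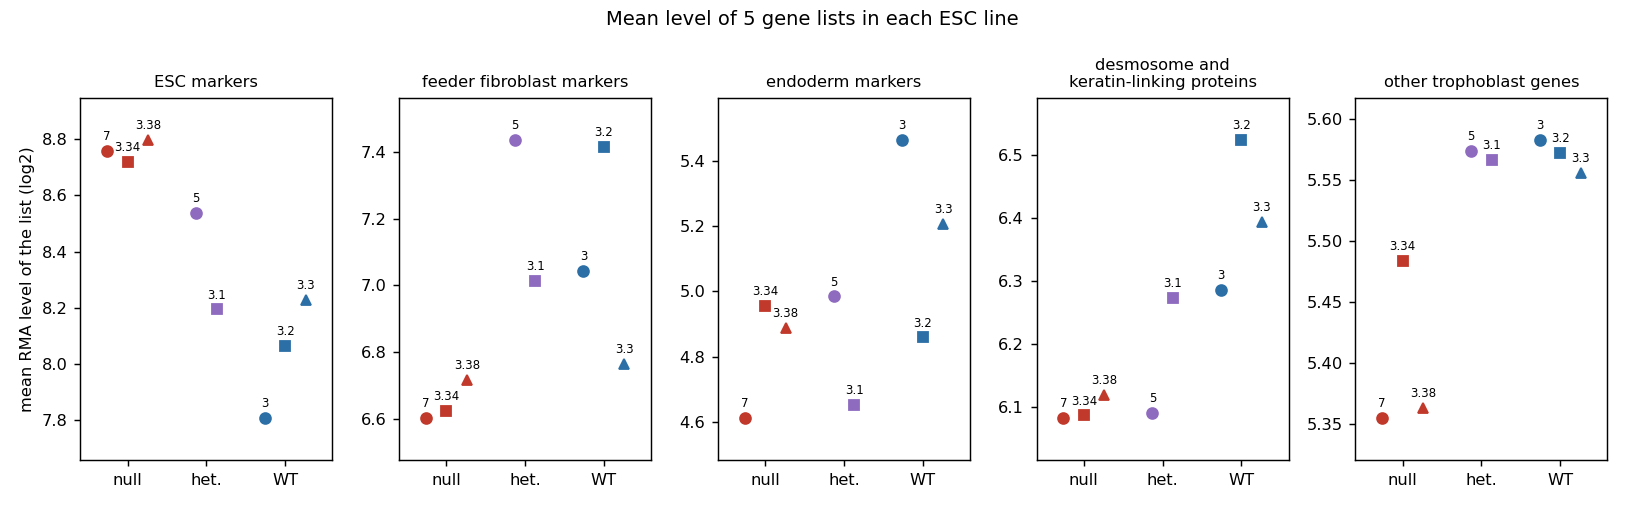
Mean RMA level (log2) of 5 gene lists in each ESC line, null lines left, heterozygous (het.) in the middle and wild-type (WT) right, each panel with its own axis. ESC markers are highest in the 3 null lines (8.72 to 8.80), and endoderm markers are highest in wild-type lines 3 and 3.3.

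Markers of ESCs and of other cells of the culture or its derivatives were read from the same arrays. Their lists were also chosen with earlier results of these data known, and 1.13% of all genes were called in null against wild-type ESCs. ESC markers had a median log2 fold change of 0.69 in null over wild-type ESCs, and 2 of 15 rose, Dppa5a (1.23, adjusted p = 0.030) and Gdf3 (1.16, adjusted p = 0.033). Pou5f1, for Oct4, was at 1.29 (adjusted p = 0.071). No ESC marker was called from signal values, with the 3′ minus 5′ covariate, or without null line 7, wild-type line 3 or wild-type line 3.2. Of 18 measured feeder markers 0 rose or fell, with a median of −0.45 and 17 of 18 lower in null ESCs, and Vim and Sparc were at −0.64 (adjusted p = 0.19) and −0.83 (adjusted p = 0.18). Of 21 measured endoderm markers 1 fell, Lamb1, a laminin chain, by 1.25 on the log2 scale (adjusted p = 0.038), and the median was −0.28. No endoderm marker was called from signal values, with the covariate, with probe sets averaged, or without null line 7, null line 3.38 or any 1 wild-type line. The share of these cells in the levels of Krt8, Krt18 and Tfap2c was not tested.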

How the data were processed

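RNA from 8 ESC lines was hybridized by the authors to Affymetrix mouse genome 430 2.0 arrays and normalized by RMA; the deposited matrix holds these log2 values, and each deposited array table holds the Affymetrix signal, the present call and the detection p-value. Versions of RMA were not given in the sources used here, so none is stated, and each matrix column was checked against its own array table. Of 45101 probe sets, 64 were controls and 34945 had 1 platform gene symbol; for each gene the probe set of greatest mean level in the 8 lines was used (18193 genes, no filter). Genotypes were compared with limma 3.58.1 under R 4.3.3 (functions lmFit and eBayes, all 8 arrays in 1 fit, Benjamini-Hochberg over all genes; call at an adjusted p of 0.05), with 95% intervals from the fit. The script was tested on simulated data. Alternatives were averaged probe sets, detected genes only, quantile normalization, log2(signal + 16) centred on the array median, the arrays of 2 genotypes only, the 3′ minus 5′ covariate, a litter block, array weights and lines left out. The p-values measure the spread between lines, with 1 array each; the number of arrays limits the precision. The 10 genes, the gene lists and the tests were chosen with earlier results of these data known. Named list genes were those called in any comparison, and up to 4 more per list with the smallest p in null against wild-type among genes detected in every line of a genotype. Where a genotype had no detected line, a fold is the brighter genotype's mean over the dimmer mean, and none is given if it is under 1 or neither was detected. Promoter windows came from RefSeq (GRCm38.p6). Tables and figures used Python 3.11.15, pandas 2.3.3 and matplotlib 3.10.9.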

Additional observations from a re-analysis of the deposited data

How the results depend on the processing

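Of the 10 genes, 0 were called in null against wild-type ESCs with all lines and under all other settings run except 2: 3 were called with litter as a replicate block, and leaving out 1 line at a time gave 0 to 2, the 2 without null line 3.34. In the comparisons with heterozygous lines 0 of the 10 were called under every setting run; the block could not be fitted there, since no heterozygous line is in it. The direction of null over wild-type turned for Krt18 (0.13 with the 3′ minus 5′ covariate) and Rhox6 (0.027 without wild-type line 3, −0.51 without null line 7 and −1.19 without wild-type line 3.2); the cause was not tested. For Krt7, Gata3 and Cdx2, for which no fold is given, the sign also turned: Krt7 and Gata3 were each lower under 11 and higher under 5 of 16 settings, and Cdx2 lower under 3 and higher under 13. Krt8, Tfap2c, Eomes and Rhox9 were lower and Krt19 higher under every setting run. Krt8 ranged from −2.68 to −0.15 and Tfap2c from −1.30 to −0.22 on the log2 scale, with the values nearest 0 from the covariate, of whose variance 79.1% lay between genotypes. Over all genes, 206 were called in null against wild-type ESCs, against 0 with the covariate, 7 from signal values, 442 of 7306 detected genes, 866 with array weights, 138 with probe sets averaged, 5 without wild-type line 3.2 and heterozygous line 3.1, and 2 to 208 with 1 line left out. In null against heterozygous ESCs 0 became 166 for detected genes only, 96 with these arrays alone, 20 with probe sets averaged and 2 from signal values, and 0 to 346 with 1 line left out. With 3, 2 and 3 lines, genes that vary as Krt8 does pass only at large differences, and genes near the detection limit, Krt7, Krt19, Gata3, Cdx2, Eomes and Rhox9, carry little information on change.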
